A study of Mus musculus with 6 samples.

Results

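The core circadian clock genes were read in the cerebral cortex of senescence-accelerated mice. They are 10 genes chosen by name, *Arntl*, *Clock*, *Npas2*, *Per1*, *Per2*, *Per3*, *Cry1*, *Cry2*, *Nr1d1* and *Dbp*, of 22527 gene symbols on the array. All 10 were found, with 22 probe sets in all, a probe set being a group of short probes that are read together. Some probe sets may match several transcripts. *Arntl*, *Per1*, *Cry1*, *Cry2* and *Nr1d1* had 1 probe set each, *Npas2* and *Dbp* had 2, *Per2* had 3, *Clock* had 4 and *Per3* had 6.

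Cortical RNA of 6 male mice, 2 in each of 3 groups, was read on Affymetrix expression arrays. SAMR1, a senescence-resistant strain that stands for normal aging, and SAMP8 control, the senescence-prone strain, both received water by mouth. STEE-fed SAMP8 received sugarcane top ethanolic extract (STEE) at 20 mg/kg. Administration lasted 30 days and went on through 8 days of behavioral tests, and the labels give an age of 16 weeks for every mouse. The methods also describe the SAMP8 mice used as 16 weeks old, with acclimatization before feeding. Neither source states the age at tissue collection, which according to the methods followed the last behavioral test, so 16 weeks need not be that age. SAMR1 is a related strain and not an isogenic control, so a difference between the strains holds every difference of their genomes. According to the methods all animals also drank BrdU, a label of dividing cells, for part of the feeding period. The photoperiod was 12-h light/dark in all groups, and the time of day at which the cortex was taken is not given in the sources used here.

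The deposited tables hold 1 mean log2 signal per group and probe set, rounded to 2 decimals, and no value of a single mouse was used. The spread between mice is therefore unknown here, no difference below carries a standard error or a test, and each was read against the differences of all genes. The value of a gene is that of its probe set with the highest mean signal, and a gene was counted as different when its group means were at least 0.25 apart on the log2 scale, which is 1.19-fold. Between the probe sets with the highest and second highest signal of the same gene, over 5522 genes with both at or above the median signal, the difference of SAMP8 control vs. SAMR1 disagreed by a median of 0.10 and by 0.29 at the 90th percentile. Between the SAMP8 groups these gaps were 0.07 and 0.19.

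The circadian clock is a feedback loop of transcription that runs in nearly every cell. BMAL1, the product of *Arntl*, pairs with CLOCK or with its relative NPAS2, binds E-box elements and switches on the *Per* and *Cry* genes, *Nr1d1* and *Dbp*. PER and CRY proteins return to the nucleus and hold their activators back, while REV-ERB alpha, the product of *Nr1d1*, represses *Arntl* and DBP acts through D-box elements. The master clock lies in the suprachiasmatic nucleus of the hypothalamus. In the cortex, *Per1* and *Per2* are also induced by neuronal activity and by glucocorticoids, so that their level depends on both the hour and recent experience.

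Short sequences that match elements of this loop were found near the annotated starts of some members. RefSeq promoter windows of GRCm38.p6, from 250 bases before to 50 bases after an annotated transcription start, were available for 9 of the 10 members, 13 windows in all; *Per2* was not among them. Exact matches were sought on both strands for the E-box CACGTG, the related E-prime box CACGTT, the D-box TTATGTAA or TTACGTAA, the end of the element bound by ROR and REV-ERB receptors (TAGGTCA or TGGGTCA) and the cAMP response element TGACGTCA. An E-box was found for 2 members, an E-prime box for 3, a D-box for 1, a ROR and REV-ERB element for 1 and a cAMP response element for 0. Of all 32851 promoter windows, 7.15% held an E-box, 4.68% an E-prime box, 1.06% a D-box, 6.45% the ROR and REV-ERB element and 1.79% a cAMP response element. These shares count windows, while a member counted once if any of its windows held a match. The 2 are therefore not directly comparable. The 250 bases before the start are shown for *Per1*, the member with the lowest STEE difference at its brightest probe set, with its E-box in capitals; for *Cry1*, with an E-prime box (read here as its reverse complement) and an E-box in capitals; and for *Per3*, with 2 D-boxes in capitals.
Per1, chr11:69098699-69098948, plus strand: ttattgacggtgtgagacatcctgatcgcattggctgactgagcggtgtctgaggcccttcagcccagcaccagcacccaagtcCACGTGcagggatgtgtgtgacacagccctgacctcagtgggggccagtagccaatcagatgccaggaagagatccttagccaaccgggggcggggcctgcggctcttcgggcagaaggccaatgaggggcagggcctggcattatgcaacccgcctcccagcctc
Cry1, chr10:85185055-85185304, minus strand: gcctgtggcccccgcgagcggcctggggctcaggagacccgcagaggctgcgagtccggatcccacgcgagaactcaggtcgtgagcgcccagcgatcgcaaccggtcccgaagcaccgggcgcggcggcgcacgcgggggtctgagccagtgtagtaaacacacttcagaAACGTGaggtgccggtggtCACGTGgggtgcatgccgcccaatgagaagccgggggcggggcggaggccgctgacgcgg
Per3, chr4:151044666-151044915, minus strand: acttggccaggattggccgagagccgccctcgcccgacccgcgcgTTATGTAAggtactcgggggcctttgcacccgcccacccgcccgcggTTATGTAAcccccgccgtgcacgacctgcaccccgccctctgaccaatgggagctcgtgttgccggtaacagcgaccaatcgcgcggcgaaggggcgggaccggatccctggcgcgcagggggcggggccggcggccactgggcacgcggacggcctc

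The E-box of *Per1* began 166 bases before the first of its annotated starts, and that of *Cry1* 60 bases before, with the E-prime box at 79. The D-boxes of *Per3* began 205 and 158 bases before its start, on the same strand and with the same letters. For *Arntl*, *Nr1d1* and *Cry2* the match is shown alone, in capitals with 8 bases on either side: the ROR and REV-ERB element of *Arntl*, which began at base 31 after the second of its annotated starts, and the E-prime boxes of *Nr1d1* and *Cry2* (both as reverse complement), 28 and 166 bases before their starts.
Arntl, chr7:113207533-113207555, plus strand: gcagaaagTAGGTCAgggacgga
Nr1d1, chr11:98775392-98775413, minus strand: cagatctcAACGTGccggctgc
Cry2, chr2:92434222-92434243, minus strand: atggtgggAACGTGagggggcg

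No match was found in the windows of *Clock*, *Npas2* and *Dbp*, which says only that these letters are not in these windows. A match is a description of the sequence and no measurement of binding.

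**Figure D1:**
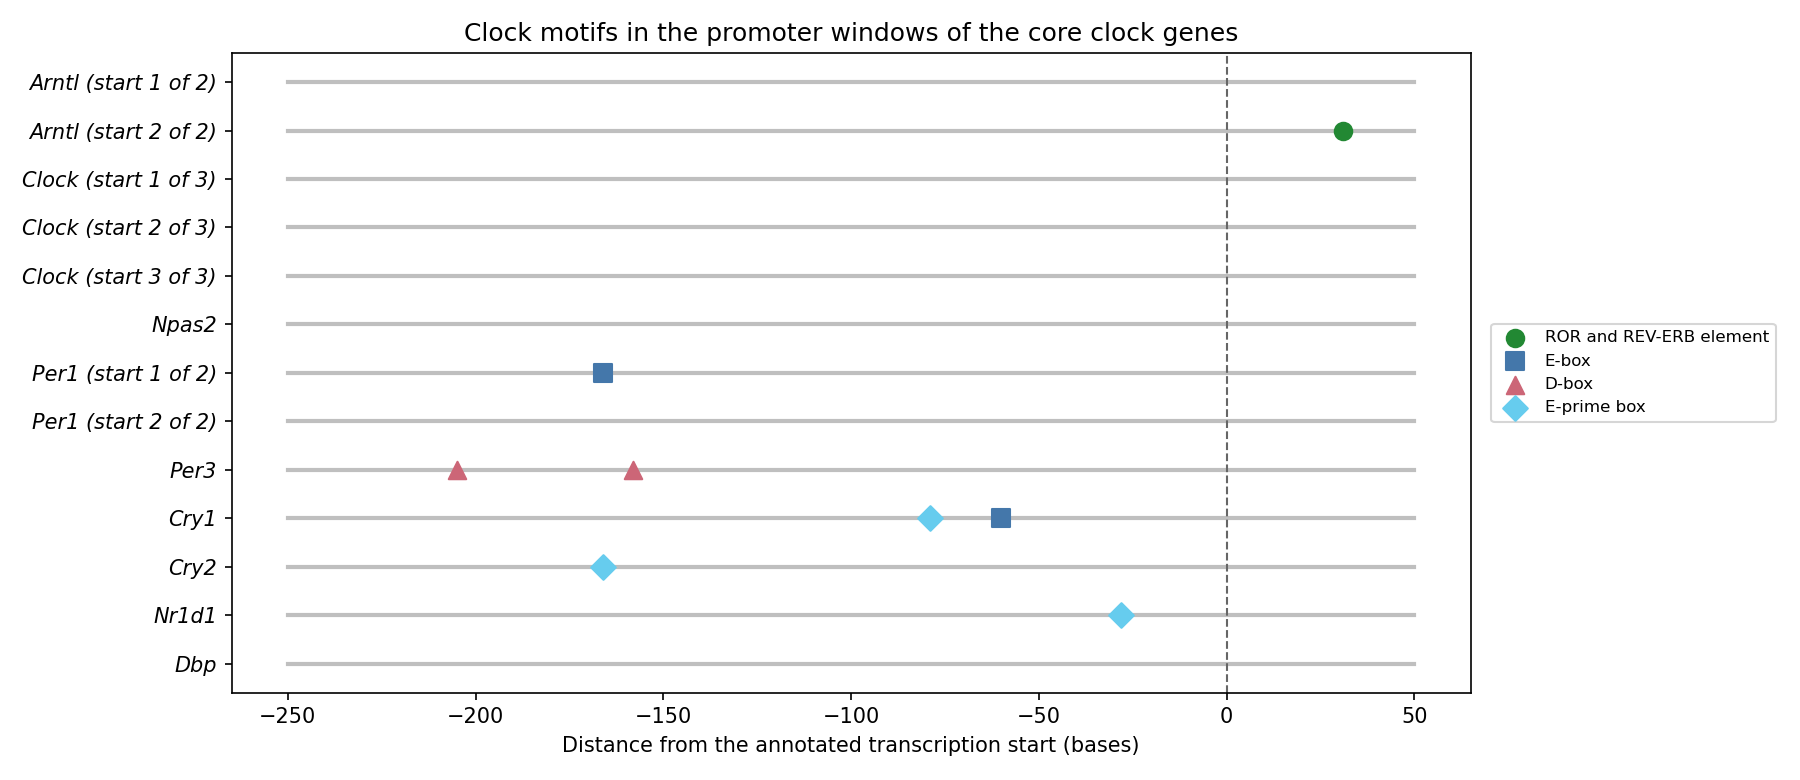
Motif matches in the promoter windows of the core clock genes. Each grey line is 1 window, the x axis gives the distance in bases of the motif's first base from the annotated transcription start, and symbols mark the motif. Both *Per3* symbols are D-boxes, at 205 and 158 bases before the start, and the E-boxes of *Per1* and *Cry1* lie 166 and 60 bases before theirs.

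Among the activators, *Arntl* differed between the strains. Its mean log2 signal (probe set 1425099_PM_a_at) was 5.79, 6.14 and 6.07 in SAMR1, SAMP8 control and STEE-fed SAMP8, the order kept below wherever 3 levels are given. Both SAMP8 groups lay above SAMR1. The difference of SAMP8 control vs. SAMR1 was 0.35, or 1.27-fold, and 2.12% of all genes were higher by as much or more. STEE-fed SAMP8 vs. SAMP8 control differed by -0.07, and 44.8% of all genes lay at least as far from zero. The *Arntl* value rests on a single probe set.

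*Clock* was nearly level at its brightest probe set, with levels of 7.82, 7.89 and 7.88. Its differences were 0.07 between the strains and -0.01 with STEE. The other 3 probe sets did not all follow. The probe set 1418659_PM_at went from 6.65 in SAMR1 to 6.95 in SAMP8 control, a difference of 0.30, while the remaining 2 differed by -0.03 and -0.02. With STEE all 4 lay between -0.03 and 0.02, so the strain difference of *Clock* depended on the probe set and the STEE difference was small at each.

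*Npas2*, which can stand in for CLOCK and is prominent in the forebrain, had levels of 5.24, 5.32 and 5.53. The difference with STEE was 0.21, below the fold threshold, and 2.61% of all genes were higher by as much or more. The dimmer probe set gave 4.31, 4.28 and 4.35, a difference of 0.07 with STEE. Against SAMR1, STEE-fed SAMP8 was higher by 0.29 at the brighter probe set and by 0.04 at the dimmer.

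**Figure D2:**
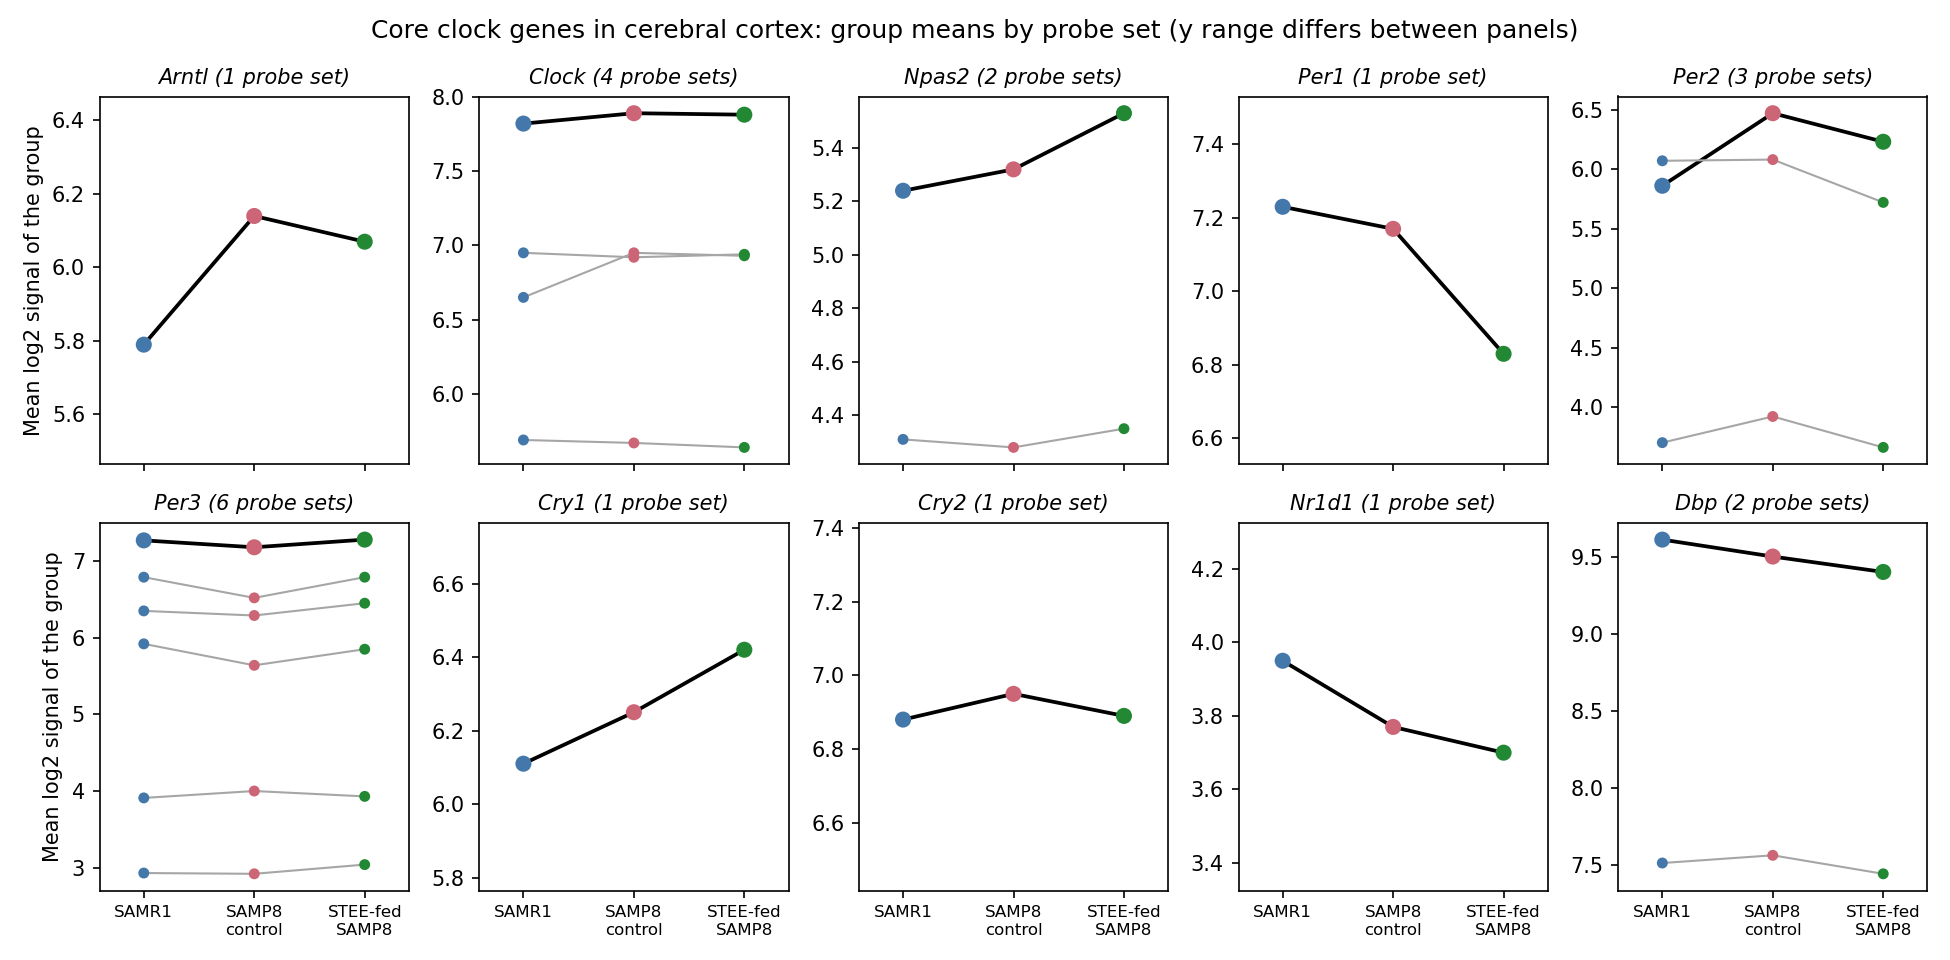
Mean log2 signal of the 10 core clock genes in SAMR1 (blue), SAMP8 control (red) and STEE-fed SAMP8 (green), 1 panel per gene. Each point is the mean of a group of 2 mice, lines join the groups of 1 probe set, the black line and large points mark the probe set with the highest signal, no error bar can be given, and the y range differs between panels. *Arntl* is lowest in SAMR1 (5.79), *Per1* lowest in STEE-fed SAMP8 (6.83), and the 3 *Per2* lines all go down from SAMP8 control to STEE-fed SAMP8.

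The *Period* genes code for the repressor proteins whose build-up times the loop. *Per1* (probe set 1449851_PM_at) had mean log2 signals of 7.23, 7.17 and 6.83. SAMR1 and SAMP8 control were close together and STEE-fed SAMP8 was lowest. STEE-fed SAMP8 vs. SAMP8 control differed by -0.34, a ratio of 0.79, and 0.391% of all genes were lower by as much or more. The strain difference was -0.06, which 61.2% of all genes matched or exceeded in size, and STEE-fed SAMP8 vs. SAMR1 differed by -0.40.

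*Per2* was read by 3 probe sets. The brightest, 1417602_PM_at, gave 5.86, 6.47 and 6.23. The second, 1457350_PM_at, gave 6.07, 6.08 and 5.72. The dimmest, 1417603_PM_at, gave 3.70, 3.92 and 3.66, below the median signal of 4.15. All 3 were lower with STEE, by -0.24, -0.36 and -0.26, of which the first stood just short of the fold threshold and the others passed it. The strain difference, in contrast, was 0.61 at the brightest, 0.01 at the second and 0.22 at the dimmest. The value of 0.61, or 1.53-fold, was the largest strain difference among the members, and 0.75% of all genes were higher by as much or more, but it was not seen at the second probe set. STEE-fed SAMP8 vs. SAMR1 was 0.37, -0.35 and -0.04 at the same probe sets, so its direction turned with the probe set. Which parts of the transcript each probe set reads was not analysed here.

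*Per3* differed between the SAMP8 groups in the opposite direction to *Per1* and *Per2*, by less than the fold threshold at its brightest probe set. That probe set, 1421087_PM_at, gave 7.27, 7.18 and 7.28. In all, 4 of the 6 probe sets lay at or above the median signal. Each of these was lowest in SAMP8 control, with strain differences of -0.06 to -0.28 and STEE differences of 0.10 to 0.27. The widest with STEE was at 1458176_PM_at, which gave 6.79, 6.52 and 6.79. STEE-fed SAMP8 and SAMR1 differed by 0.01 at the brightest probe set and by -0.07 to 0.10 over these probe sets. The 2 dimmer probe sets differed by 0.09 and -0.01 between the strains and by -0.07 and 0.12 with STEE. SAMP8 control enters both comparisons, so a low mean in that group lowers the first and raises the second.

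*Cry1* and *Cry2* code for the partners of the PER proteins and had 1 probe set each. *Cry1* had levels of 6.11, 6.25 and 6.42. Its differences were 0.14 between the strains and 0.17 with STEE, neither past the fold threshold, and STEE-fed SAMP8 lay 0.31 above SAMR1, or 1.24-fold. *Cry2* was 6.88, 6.95 and 6.89 in the same groups. No difference of *Cry2* exceeded 0.07.

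*Nr1d1*, the nuclear receptor that represses *Arntl*, had levels of 3.95, 3.77 and 3.70. It was the only member whose leading probe set lay below the median signal of all probe sets, where differences are hard to read. SAMP8 control vs. SAMR1 differed by -0.18 and STEE-fed SAMP8 vs. SAMP8 control by -0.07. STEE-fed SAMP8 vs. SAMR1 was -0.25, on the fold threshold itself, and it stood at -0.24 when each group was centred on its median.

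*Dbp*, an output factor driven by E-boxes, gave 9.61, 9.50 and 9.40 at its brighter probe set, 1438211_PM_s_at. Its other probe set gave 7.51, 7.56 and 7.44. With STEE both were lower, by -0.10 and -0.12. Between the strains they differed in sign, by -0.11 and 0.05, and no *Dbp* difference reached the fold threshold in any comparison.

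Counted over the members, SAMP8 control vs. SAMR1 passed the fold threshold at 2 of 10 genes, *Arntl* and *Per2*, both higher in SAMP8 control. Of all genes 8.09% did so in either direction, 4.25% as higher and 3.84% as lower. Among genes at or above the median signal, where 9 of the members lie, 12.0% did so. The median difference of the members was 0.07, against 0.00 for all genes. The median absolute difference was 0.10 for the members and 0.07 for all genes.

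Between STEE-fed SAMP8 and SAMP8 control, 1 of 10 members passed, *Per1*, lower with STEE, with *Per2* just outside at -0.24. Of all genes 2.62% passed in either direction, 1.40% as higher and 1.22% as lower. Among genes at or above the median signal 3.44% passed. Of the members, 7 were lower and 3 higher (*Npas2*, *Per3* and *Cry1*), with a median of -0.065 against 0.00 for all genes. When each gene was averaged over its probe sets, *Per2* passed as well, at -0.29, and 1.67% of all genes passed.

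STEE-fed SAMP8 vs. SAMR1 was taken from the same means. Here 6 of 10 members passed the fold threshold, against 8.88% of all genes (5.35% higher and 3.53% lower) and 13.3% of genes at or above the median signal. *Arntl* (0.28), *Npas2* (0.29), *Per2* (0.37) and *Cry1* (0.31) were higher, and *Per1* (-0.40) and *Nr1d1* (-0.25) lower. Averaged over probe sets, 4 passed, against 6.68% of all genes under the same rule, since *Npas2* became 0.16 and *Per2* became -0.01. The highest of the 6 in size, *Per1*, was equalled or exceeded by 2.85% of all genes. This comparison is the sum of the other two and shares a group with each.

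**Figure D3:**
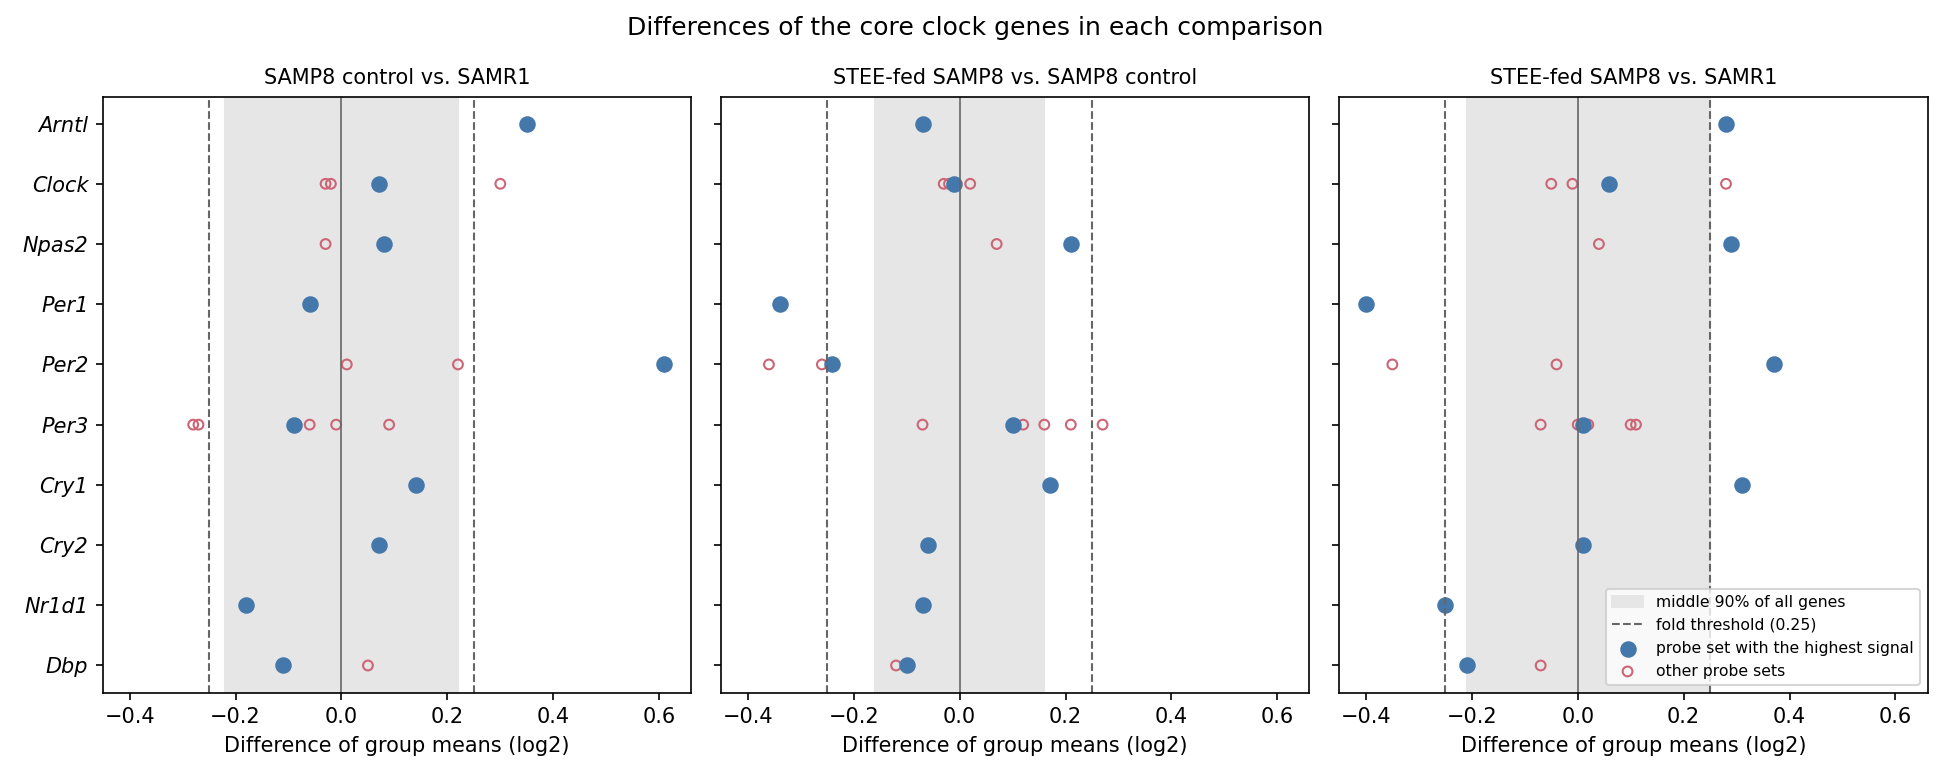
Differences of group means (log2, x axis) of the 10 core clock genes in each comparison. Filled points are the probe set with the highest signal of a gene, open points its other probe sets, dashed lines the fold threshold of 0.25 and grey the middle 90% of all genes. *Per2* stands at 0.61 for SAMP8 control vs. SAMR1 with its other probe sets at 0.01 and 0.22, *Per1* stands at -0.34 in the middle panel, and 6 filled points lie on or past the dashed lines for STEE-fed SAMP8 vs. SAMR1.

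Around the core loop, 18 accessory clock genes (receptors, repressors, kinases and ubiquitin ligases that tune it) were all on the array, *Ciart* under its older symbol *Gm129*. For SAMP8 control vs. SAMR1, 2 of the 18 were higher past the threshold and 1 lower, against 4.25% and 3.84% of all genes. With STEE 0 were higher and 1 lower, against 1.40% and 1.22%. *Nfil3*, a repressor at D-boxes, had levels of 3.91, 4.35 and 4.16, a strain difference of 0.44. Its mean signal of 4.14 lay just below the median of all probe sets. *Bhlhe40*, a repressor at E-boxes that also answers to neuronal activity, was 8.31, 8.70 and 8.29 in the same groups. Its strain difference was thus 0.39 and its STEE difference -0.41, and with STEE it was the only accessory gene past the threshold. *Rora*, which activates *Arntl*, was lower by -0.28 in SAMP8 control at its brightest probe set, while another of its 9 probe sets was higher by 0.82, from 6.72 to 7.54.

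Other partners of the members stayed inside the threshold between the strains and with STEE at their brightest probe set. *Tef* and *Hlf*, relatives of *Dbp*, differed by 0.06 and -0.02 between the strains and by -0.02 and 0.01 with STEE, though a second *Tef* probe set was lower by -0.39 in SAMP8 control. *Nr1d2*, the relative of *Nr1d1* with a far brighter probe set, had levels of 9.79, 9.76 and 9.71. *Rorb* differed by -0.06 and -0.07, and *Bhlhe41* by 0.11 and -0.11, in the same comparisons. *Ciart*, a repressor with 3 E-boxes in its promoter window, was 5.54, 5.50 and 5.27, a difference of -0.23 with STEE and of -0.27 for STEE-fed SAMP8 vs. SAMR1. The medians of the 18 genes were 0.00 between the strains and -0.035 with STEE. For STEE-fed SAMP8 vs. SAMR1, *Nfil3* (0.25) was the 1 accessory gene higher past the threshold and *Ciart* the 1 lower.

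Genes that share inputs or outputs with the clock were read beside it. Of 11 immediate-early genes, which neuronal activity induces as it does *Per1*, *Per2* and *Bhlhe40*, 9 were lower past the threshold with STEE and 0 higher, with a median of -0.57. *Fos* had levels of 8.51, 8.66 and 7.46, and *Egr1* was 10.27, 10.76 and 10.19. Between the strains 5 of the 11 were higher in SAMP8 control and 0 lower, against 4.25% and 3.84% of all genes. Of 10 genes that glucocorticoids induce, 4 were higher with STEE and 0 lower, *Fkbp5* by 0.46, *Zbtb16* by 0.47, *Mt2* by 0.36 and *Plin4* by 0.41, with a list median of 0.17. Against SAMR1, 6 of the 10 were higher in STEE-fed SAMP8 and 0 lower, against 5.35% and 3.53% of all genes. They were *Fkbp5* (0.56), *Zbtb16* (0.63), *Plin4* (0.43), *Sgk1* (0.31), *Klf9* (0.25) and *Map3k6* (0.27), while *Mt2* stood at 0.17. *Plin4* and *Map3k6* lay below the median signal. *Pdk4* was the only one of the list past the threshold between the strains, at 0.29. With STEE the background for both lists was 1.40% of all genes higher and 1.22% lower. In this comparison single genes ranged from -1.23 to -0.05 in the immediate-early list and from -0.21 to 0.47 in the glucocorticoid list. The part of neuronal activity or of glucocorticoids in the *Per1* and *Per2* values was not tested.

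Clock output genes did not share a direction. *Cdkn1a* (0.59) and *Coq10b* (0.30) were higher and *Tspan4* (-0.60) lower in SAMP8 control, out of 8 genes. With STEE *Tsc22d3* (0.32), which glucocorticoids also induce, was higher and *Coq10b* (-0.54) lower. Beside this list and the next, 4.25% of all genes were higher and 3.84% lower between the strains, and 1.40% and 1.22% with STEE. Of 8 temperature-responsive genes, the cold-induced *Cirbp* (-0.40) and *Rbm3* (-0.31) were lower and the heat-shock genes *Hsph1* (0.27), *Hspa1a* (0.32), *Hspa1b* (0.92) and *Dnajb1* (0.46) higher in SAMP8 control. The dimmer *Rbm3* probe set differed by 0.48, and both *Rbm3* probe sets are also annotated to a second symbol. With STEE *Hspa1b* (-0.38) and *Dnajb1* (-0.29) were lower. The dimmer *Rbm3* probe set differed by -0.57 with STEE and the brighter by 0.02.

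**Figure D4:**
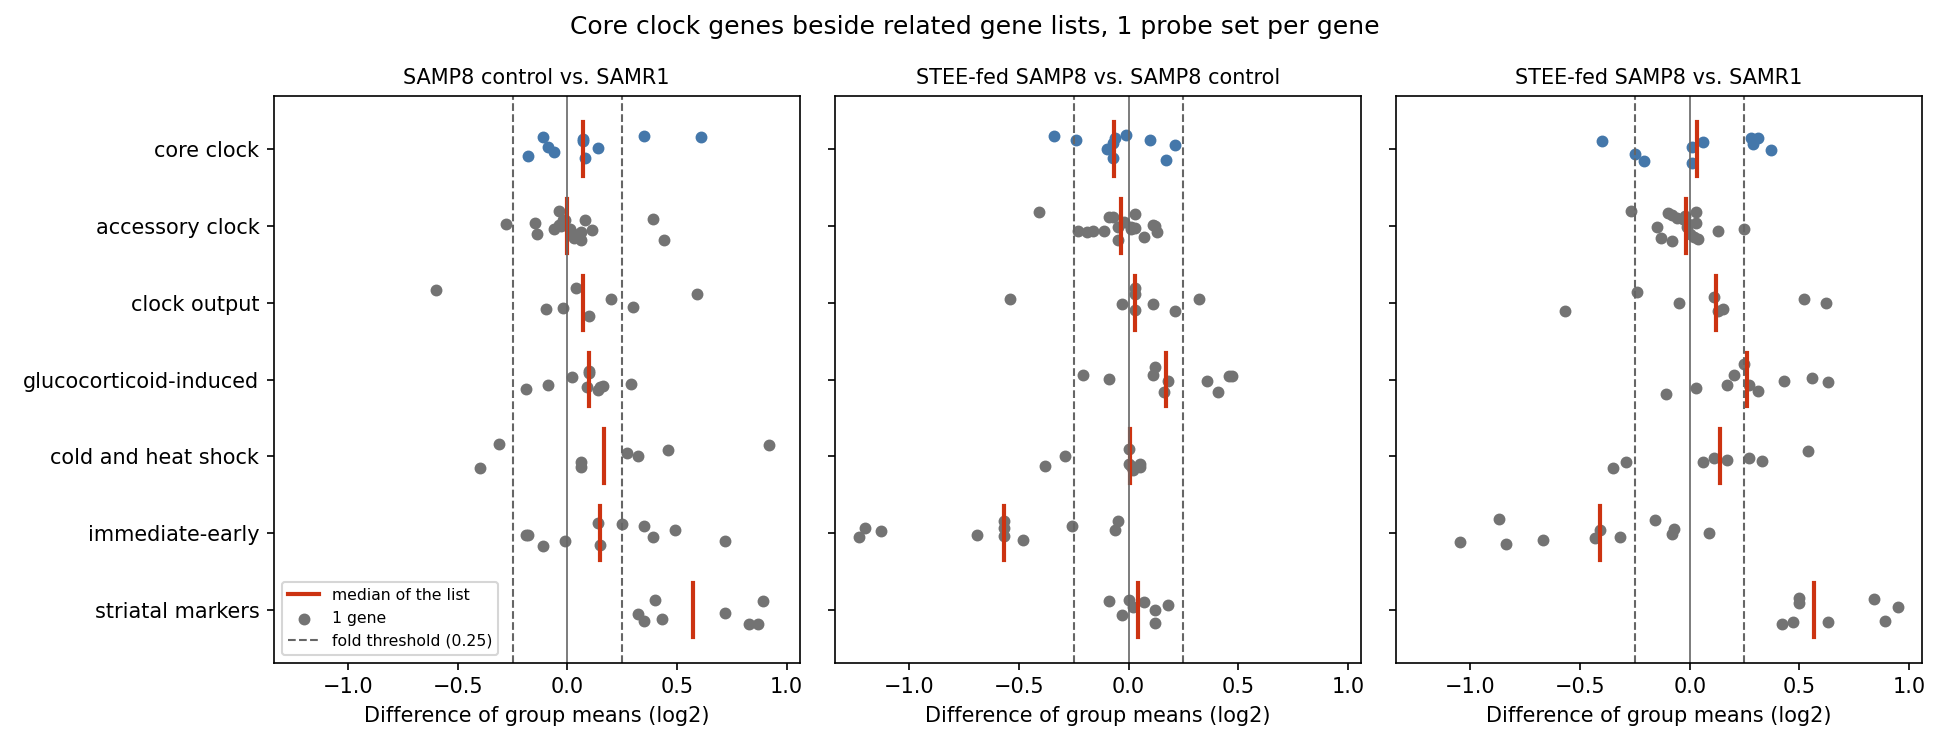
Differences of group means (log2, x axis) for the 10 core clock genes (blue) and for lists of related genes (grey), 1 point per gene at its probe set with the highest signal; points are spread vertically for legibility only. Red bars are the median of a list and dashed lines the fold threshold of 0.25. With STEE the immediate-early list has its median at -0.57 and the core clock at -0.065, and all 8 striatal markers lie past the threshold in both comparisons with SAMR1.

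The dissected tissue differed between the groups in markers of other regions. All 8 markers of striatal projection neurons were higher past the threshold in SAMP8 control than in SAMR1, with a median of 0.575, and their mean log2 signal was 7.57, 8.17 and 8.22. With STEE 0 of the 8 passed. The 6 markers of cortical excitatory neurons had mean log2 signals of 7.30, 7.30 and 7.51. With STEE 3 of them were higher past the threshold, *Tbr1* by 0.29, *Cux2* by 0.30 and *Fezf2* by 0.27, and 0 lower, with a median of 0.225. The other *Cux2* probe sets differed by 0.04 and -0.01. Between the strains 1 of the 6 markers was higher and 2 lower. Beside these marker lists, 4.25% of all genes were higher and 3.84% lower between the strains, and 1.40% and 1.22% with STEE. Of 8 markers of the suprachiasmatic nucleus and hypothalamus, 3 were lower past the threshold in SAMP8 control and 1 higher, with a median of -0.13. The lower ones were *Avp* (5.66, 3.43 and 3.54), *Pmch* (5.79, 3.31 and 3.31) and *Oxt* (6.35, 5.81 and 5.80), and the higher one was *Vip* (7.84, 8.71 and 8.85), which cortical interneurons also express. With STEE 0 of the 8 passed, and *Six6*, which marks the suprachiasmatic region in development, stayed between 2.52 and 2.61. Of 6 choroid plexus markers, *Ttr* (10.20, 8.24 and 9.33) and *Kcnj13* (3.68, 3.25 and 3.47) were lower past the threshold in SAMP8 control, with a list median of -0.155. *Kcnj13* lay below the median signal. With STEE *Ttr* alone passed, higher by 1.09, while the list median was 0.01. The strain differences of *Arntl* and *Per2* and the comparison of STEE-fed SAMP8 with SAMR1 were read in tissue that differed in these markers. With STEE the only markers in these lists past the threshold were 3 of cortical excitatory neurons and *Ttr*, all higher. The part of tissue makeup in any difference of the clock genes was not tested. In whole tissue, fewer cells of a type and less RNA per cell cannot be told apart.

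The genes whose differences came closest to those of *Per2* and *Per1* were sought among 13000 other genes at or above the median signal. The measure was the Euclidean distance over the differences of SAMP8 control vs. SAMR1 and STEE-fed SAMP8 vs. SAMP8 control. The signal level itself did not enter. For *Per2* they were *2610018G03Rik* (distance 0.014), *Ptpro* (0.022), *Dusp14* (0.036), *Tmem203* (0.051) and *Ovol2* (0.085). *Dusp14*, for example, had levels of 6.84, 7.48 and 7.22. For *Per1* they included *Sik1* (0.022), *Pvr* (0.022), *Plod2* (0.032) and *Fam53b* (0.041). *Sik1* was 4.81, 4.73 and 4.40 in the same groups. Within a distance of 0.05 lay 3 genes for *Per2* and 6 for *Per1*. Likeness over these differences is a description only, and that to *Per2* rests on its brightest probe set.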

How the data were processed

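Cerebral cortex of 6 mice, 2 in each of 3 groups taken from the sample titles, was measured on Affymetrix mouse expression arrays. The authors summarised probe intensities with RMA in Expression Console and averaged groups in Transcriptome Analysis Console. They deposited 2 tables of 45077 probe sets with mean log2 signals per group, named bi-weight averages in the headers and rounded to 2 decimals; the genome build is not given in the sources used here. Their linear fold changes, ANOVA p-values and FDR p-values were not used. The SAMP8 control means were identical in both tables (0 values differed), so all 3 groups were read on 1 scale. Averaging and rounding hide the spread between mice, and a difference can be off by 0.01 through rounding.

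Probe sets were assigned to each symbol of their entry, and 5694 carried none. Differences were taken between group means. A gene past 0.25 (log2) at the probe set with the highest mean over the groups was counted as different. No test was possible, although limma had been planned in case values per array were found, and array number alone limits precision. The members and lists were chosen with earlier results of these data known. Named genes are the 10 members, accessory clock genes past the threshold or paired with a member by role, genes of other lists past the threshold, *Fos* and *Egr1*, and the 5 genes most like *Per2* and *Per1*, of which 1 is not reported here; the region markers were named after their values were seen. *Ciart* and *Drd1* were matched to older symbols by synonyms listed in RefSeq (GRCm38.p6). Further marker lists covered astrocytes, oligodendrocytes, microglia and endothelium: for SAMP8 control vs. SAMR1 their median differences were -0.10, -0.31, -0.03 and -0.05, and with STEE -0.06, -0.04, -0.02 and 0.135. Calculations used Python 3.11.15, numpy 2.4.6, pandas 2.3.3 and matplotlib 3.10.9, and the counting was tested on simulated data. Alternatives were the choice of probe set, the threshold, the centring, a filter on low signal and the removal of probe sets that may match several transcripts.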

Additional observations from a re-analysis of the deposited data

How the results depend on the processing

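With 1 mean per group, neither a replicate could be left out nor a spread computed. No paired analysis was possible because the files hold group means and no value of a single mouse. Under the 6 alternatives that change a member's value, 144 values of single members kept their side of the 0.25 threshold, although 8 of these, all inside it, changed sign. Another 5 moved inside it, 5 moved past it, and 2 that were past it turned: *Per2* in STEE-fed SAMP8 vs. SAMR1 became -0.01 as the mean over its probe sets and -0.35 at the probe set with the second highest signal. The number of members past the threshold depended on the probe set and the threshold. At the probe set with the second highest signal, which 5 members have, it was 1 between the strains, against 9.67% of genes with such a probe set. Between the SAMP8 groups it was 2, against 2.86%, and for STEE-fed SAMP8 vs. SAMR1 it was 1, against 11.1%. With the mean over probe sets it was 2 (*Per1* and *Per2*) between the SAMP8 groups, against 1.67% of all genes. In the same comparison it was again 2, the same genes, after subtraction of a running median over probe sets of like signal, against 2.56%. There it was 4 at a threshold of 0.15, which 12.9% of all genes passed. At a threshold of 0.5 it was 1, 0 and 0 in the 3 comparisons, against 1.58%, 0.244% and 1.67% of all genes. For STEE-fed SAMP8 vs. SAMR1 it was 5 in place of 6 after centring each group on its median, against 8.98% of all genes, with *Nr1d1* at -0.24. It was also 5 after subtraction of the running median, against 8.51%, with *Nr1d1* at -0.21. Among probe sets at or above the median signal, which leave out *Nr1d1*, it was 5 as well, against 13.3% of the genes read there. Without probe sets marked as matching several transcripts, *Arntl* and *Cry1* could not be read. Between the strains 1 member, *Per2*, then passed, against 7.71% of the genes still read. Of the 22 probe sets of the members, 4 lie below the median signal, where the array separates groups poorly.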
